A study of Mus musculus with 43 samples.

Results

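Ly6Chi mononuclear cells from the lungs of newborn mice were compared after hyperoxia and after normoxia. The libraries were chosen by their labelled source, hyperoxic or normoxic Ly6C hi cells, which took 11 of the 43 libraries of the series, 5 hyperoxic and 6 normoxic. All pups were neonatal C57BL/6 mice without a transgene or a deletion in the labels. The hyperoxic pups breathed a fraction of inspired oxygen of 0.9 and the normoxic controls stayed in normal oxygen, both for 1.5 days. Litters were mixed before the pups were assigned at random. Lungs were perfused and dissociated, and Ly6Chi cells were sorted by high Ly6C and low CD11c straight into lysis buffer. The hyperoxic group holds 2 libraries of litter 93, 1 of litter 100 and 2 of litter 108, and the normoxic group holds 2 of each litter. For the test of differences between populations, 5 hyperoxic and 6 normoxic libraries each of DC (dendritic cells, gated on MHCII and CD11c) and AM (macrophages of the alveoli, gated on CD11c and SiglecF), and 5 and 5 of CD11c-high Ly6Clo cells, were used. Nothing in the labels says which pup or pups gave a library, so p-values measure the spread between libraries, which may be partly technical. The title of the series sets the balance of Ly6Chi and Ly6Clo cells in hyperoxic injury beside interferon-γ, and the comparison asks which transcripts of Ly6Chi cells differ under high oxygen.

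Ly6Chi cells are the classical monocytes and the young macrophages that form from them. Monocytes leave the bone marrow through the chemokine receptor CCR2, enter inflamed or growing tissue, and there become macrophages or antigen-presenting cells. High oxygen forms reactive oxygen species, to which cells answer through NRF2 (antioxidant enzymes) and, when DNA is damaged, p53 (arrest of the cell cycle). Oxygen also feeds the enzymes that mark hypoxia-inducible factor (HIF) for destruction, so HIF target genes follow oxygen closely. Interferon-γ, made by T and natural killer (NK) cells, acts on guanylate-binding proteins, chemokines and antigen presentation.

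The transcripts of the sort markers followed the labels. The cells were chosen by these markers, so their levels are not separate evidence of identity. Ly6c2, which encodes the Ly6C sort marker, had 445, 486, 963, 377 and 360 CPM (counts scaled to a common library size) in the hyperoxic libraries, and 345 to 520 CPM with a median of 395 CPM in the normoxic ones. On a scale set over all 43 libraries, Ly6c2 had a median of 469 CPM in hyperoxic Ly6Chi cells, against 133, 36.7 and 9.59 CPM in hyperoxic DC, AM and Ly6Clo cells. Ccr2 had 1020 to 1160 CPM in hyperoxia and 949 to 1170 CPM in normoxia, a log2 fold change of 0.07 ± 0.08 (SE). Itgax, which encodes CD11c, stayed low at 3.21 to 27.2 CPM in hyperoxia and 3.66 to 15.5 CPM in normoxia. Csf1r, the receptor for the monocyte growth factor CSF1, had a log2 fold change of 0.04 ± 0.09. Neither Ccr2 nor Csf1r was particular to Ly6Chi cells. On the scale of all 43 libraries, normoxic Ccr2 medians were 1040 CPM in Ly6Chi, 1040 in DC, 900 in Ly6Clo and 76.9 in AM. Those of Csf1r were 634, 446, 581 and 142 CPM in the same order.

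Library totals were 1026528 to 2298828 counts in hyperoxia and 1525352 to 2393286 counts in normoxia, with 14121 to 15830 and 14632 to 15781 genes detected. Hyperoxia replicate 3, which is the smallest library and the only hyperoxic one of litter 100, stood apart from the others. Its median correlation with the other libraries was 0.824, against 0.881 to 0.923 for the rest, and it lay alone at the end of the first principal component, which held 30.9% of the variance. It had the highest value of the 11 libraries in 26.4% of the genes tested and the lowest in 25.3%, where no other library exceeded 10.7% either way. Values at an unadjusted p under 0.05 that moved by over 1.5 times without it are given both ways. Leaving it out also leaves litter 100 without a hyperoxic library. With litter in the model, the effect then rests on litters 93 and 108, and normoxia replicates 3 and 4 drop out of it too. Values without it therefore differ by more than that library.

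No gene passed an adjusted p of 0.05. Of 10844 genes tested by edgeR's quasi-likelihood test with litter as a block, 0 were called (0%), while 591 had an unadjusted p under 0.05 (5.45%). Of these, 310 were higher in hyperoxia (2.86%) and 281 were lower (2.59%). Those shares are the background for the list counts below, and without hyperoxia replicate 3 they were 1.22% and 2.03%. Over all genes tested, 5163 log2 fold changes were positive and 5681 negative. The median log2 fold change of all genes was −0.02, with quartiles of −0.19 and 0.18, and the median SE was 0.23. Limma voom also called 0 genes, and DESeq2 called 5, among them H2-Ab1 higher and Ankrd37, Narf and Tspan18 lower. Values below are therefore measurements with their errors, and none is a call unless that is stated. The groups did not overlap for 6 genes that were higher in every hyperoxic library (0.0553%) and for 18 that were lower in every one (0.166%).

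**Figure D1:**
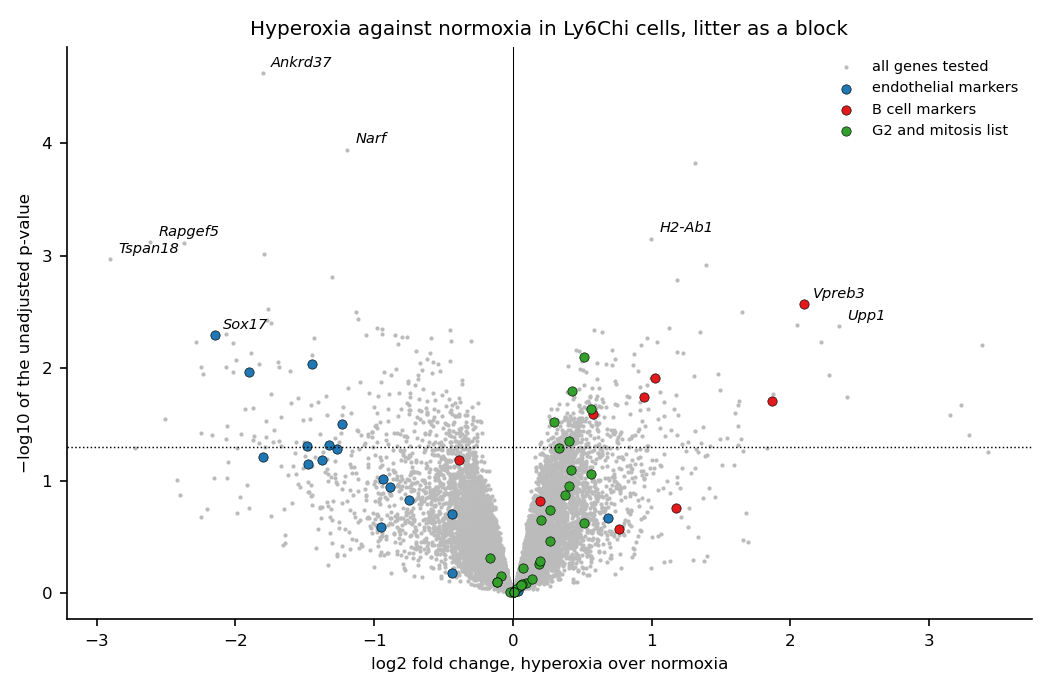
Each point is a gene tested in Ly6Chi cells, with its log2 fold change (hyperoxia over normoxia) on the x axis and −log10 of its unadjusted p on the y axis. The dotted line marks an unadjusted p of 0.05, and colours mark endothelial markers, which lie mostly to the left, B cell markers, which lie mostly to the right, and the G2 and mitosis list, which lies mostly to the right at small fold changes.

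Ankrd37, an ankyrin-repeat gene and a known HIF target, had the smallest p of all genes. It had 6.95, 7.46, 5.43, 7.28 and 6.42 CPM in hyperoxia, and 31.6, 26.1, 29.0, 31.3, 16.3 and 17.5 CPM in normoxia. Every hyperoxic library lay below every normoxic one, and the 5 hyperoxic values were closer to each other than the 6 normoxic ones. The log2 fold change was −1.80 ± 0.28 (SE, unadjusted p = 2.38e-05, adjusted p = 0.258), and it was −1.85, −2.27 and −1.18 in litters 93, 100 and 108. Without hyperoxia replicate 3 it was −1.65. Across 25 alternatives the log2 fold change ran from −2.13 to −1.64, and 2 of them called the gene.

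Narf, which encodes a protein that binds prelamin A, came second. It had 28.9, 56.6, 23.9, 60.9 and 53.9 CPM in hyperoxia, and 47.7 to 127 CPM with a median of 97.6 CPM in normoxia. The groups overlapped at a single normoxic library, replicate 3 of litter 100. The log2 fold change was −1.20 ± 0.22 (SE, adjusted p = 0.537), and it was negative in all 3 litters.

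The promoters of these genes are shown because Ankrd37 is a HIF target, and HIF binds the core letters ACGTG or GCGTG. Both were searched on both strands in the 300 bases around each start (250 before it and 50 after, RefSeq, GRCm38.p6), and matches are in capitals. Where both strands hold a match at overlapping letters, the capitals run on. Ankrd37 lies on the minus strand of chromosome 8 (chr8:45999801-46000100) and Narf on the plus strand of chromosome 11 (chr11:121236986-121237285).
Ankrd37: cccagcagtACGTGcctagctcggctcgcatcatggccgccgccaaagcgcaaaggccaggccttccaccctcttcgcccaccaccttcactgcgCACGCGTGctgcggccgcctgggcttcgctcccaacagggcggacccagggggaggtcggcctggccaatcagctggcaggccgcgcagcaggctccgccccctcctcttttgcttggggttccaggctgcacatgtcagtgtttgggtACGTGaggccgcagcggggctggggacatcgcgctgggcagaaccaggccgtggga
Narf: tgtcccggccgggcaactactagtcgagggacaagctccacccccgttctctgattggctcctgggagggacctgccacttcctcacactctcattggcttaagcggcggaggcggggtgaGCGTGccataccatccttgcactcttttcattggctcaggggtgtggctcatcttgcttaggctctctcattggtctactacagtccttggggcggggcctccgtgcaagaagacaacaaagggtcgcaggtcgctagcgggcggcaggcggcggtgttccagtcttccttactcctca
Ankrd37 held 2 matches to ACGTG and 2 to GCGTG, and Narf held 0 and 1. Either core was in 43.8% of the 32851 promoters of this length, ACGTG in 19.6% and GCGTG in 32.4%. A match describes letters and not a binding site.

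The list of HIF targets showed no common direction. Of 22 genes in the list, 18 were tested, 0 were called, 8 had positive and 10 had negative log2 fold changes, and the median was −0.10, against −0.02 for all genes. At an unadjusted p under 0.05, 1 was higher (background 2.86%) and 2 were lower (background 2.59%). P4ha1, a collagen prolyl hydroxylase, had 48.7, 54.1, 39.1, 76.4 and 48.4 CPM in hyperoxia and 32.2 to 102 CPM in normoxia (log2 fold change −0.60 ± 0.25). Bhlhe40, a transcription factor that HIF and many other signals induce, went the other way, at 0.85 ± 0.38. Vegfa, the vascular growth factor, spread over 0.622 to 39.6 CPM in hyperoxia and 4.65 to 68.6 CPM in normoxia (−1.26 ± 1.05). The 15 glycolytic enzymes had a median of −0.04, with 0 at an unadjusted p under 0.05 in either direction. Some of them held few counts in this table, such as Gapdh at 1.09 to 10.6 CPM and Pgam1 at 4.35 to 15.1 CPM, so the list is an incomplete measure of glycolysis. Hk2, the inducible hexokinase, came nearest at 0.41 ± 0.20, or 0.08 without hyperoxia replicate 3. Without that library the HIF median was −0.01, and 0 of its genes were higher and 1 lower at an unadjusted p under 0.05.

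Genes of DNA replication lay slightly above 0 as a list. Of 30 genes 29 were tested, and 22 had positive log2 fold changes, with a median of 0.14. Among the 29, 2 were higher at an unadjusted p under 0.05 (background 2.86%) and 0 were lower. The median was 0.27 without hyperoxia replicate 3, with 26 of 29 positive and 3 higher at an unadjusted p under 0.05. Tyms, the thymidylate synthase, had a log2 fold change of 0.44 ± 0.20, and Dut, which clears dUTP, 0.39 ± 0.21. The litters differed for both genes. In litters 93, 100 and 108 the log2 difference was 1.04, 0.1 and 0.08 for Tyms and 0.91, 0.49 and −0.2 for Dut. Normoxia replicate 1, of litter 93, had the lowest mean log2 CPM of the replication list of all 11 libraries (4.79). Among the 32 genes of G2 and mitosis (median 0.16), 26 were positive and 5 were higher at an unadjusted p under 0.05 (background 2.86%). These were Ube2c (0.51 ± 0.16), a ubiquitin-conjugating enzyme of mitotic exit, Birc5 (0.43 ± 0.16), which encodes survivin, Cdk1 (0.56 ± 0.22), the kinase that starts mitosis, Cenpa (0.30 ± 0.12), the histone of centromeres, and Cdca8 (0.41 ± 0.18), of the same complex as survivin.

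Hyperoxia replicate 3 was the lowest hyperoxic library for Cdk1. This gene had 107, 91.4, 70.6, 145 and 188 CPM in hyperoxia and 52.1 to 115 CPM in normoxia, so the 4 other hyperoxic libraries lay in the upper part of the normoxic range or above it. Without hyperoxia replicate 3 the effect rested on litters 93 and 108 alone. In that fit 12 of the 32 mitotic genes were higher at an unadjusted p under 0.05, against 1.22% of 11200 genes tested. The median of the mitotic genes was 0.37. Cdk1 then had a log2 fold change of 0.85 (unadjusted p = 8.25e-05), and 0 genes passed the adjusted threshold. The litters differed too: the log2 difference of Mki67, the proliferation marker, was 0.72 in litter 93, −0.44 in litter 100 and 0.27 in litter 108. In the normoxic libraries of litter 93 Mki67 had 87.8 and 66.3 CPM, against 105 to 197 CPM in the other normoxic libraries.

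MHC class II genes, which present antigen to CD4 T cells, were mostly higher in hyperoxia. Of 11 genes 10 were tested, 9 had positive log2 fold changes, 5 were higher at an unadjusted p under 0.05 (background 2.86%), and the median was 0.53. The median was again 0.53 without hyperoxia replicate 3, but 2 genes, H2-Ab1 and H2-Eb1, were higher at an unadjusted p under 0.05. H2-Ab1 had 165, 190, 267, 151 and 159 CPM in hyperoxia, and 58.0 to 154 CPM with a median of 86.4 CPM in normoxia. A single normoxic library, replicate 1 at 154 CPM, reached into the hyperoxic range. The log2 fold change was 1.0 ± 0.23 (SE, adjusted p = 0.758), or 0.76 without hyperoxia replicate 3. H2-Eb1 and H2-Aa, which encode other chains of the same receptors, had 1.18 ± 0.30 and 1.18 ± 0.36, or 0.96 and 0.82 without it. H2-DMa, which loads peptides, had 0.32 ± 0.12, or 0.16 without it. Ciita, the master activator of the class, was too low to test, at 0 to 4.35 CPM in hyperoxia and 1.08 to 7.77 CPM in normoxia.

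B cell markers were higher beside these genes. B cells also carry MHC class II. Of 14 markers 9 were tested, 8 had positive log2 fold changes, and 5 were higher at an unadjusted p under 0.05 (background 2.86%). The list median was 0.95, or 0.89 with 4 such genes without hyperoxia replicate 3. Cd79a, a chain of the B cell receptor, had 88.2, 88.9, 90.2, 75.0 and 50.9 CPM in hyperoxia and 15.5 to 67.7 CPM in normoxia (1.03 ± 0.35). Vpreb3, of the pre-B cell receptor, had 2.10 ± 0.57, Ms4a1, which encodes CD20, 0.95 ± 0.35, and Ighm, the IgM heavy chain, 0.58 ± 0.23. The markers summed to 496 to 896 CPM in hyperoxia and 330 to 644 CPM in normoxia, and Igll1 had no count in any of the 11 libraries. Their part in the MHC class II values was not tested. In bulk libraries, more cells of a type and more RNA per cell cannot be told apart.

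**Figure D2:**
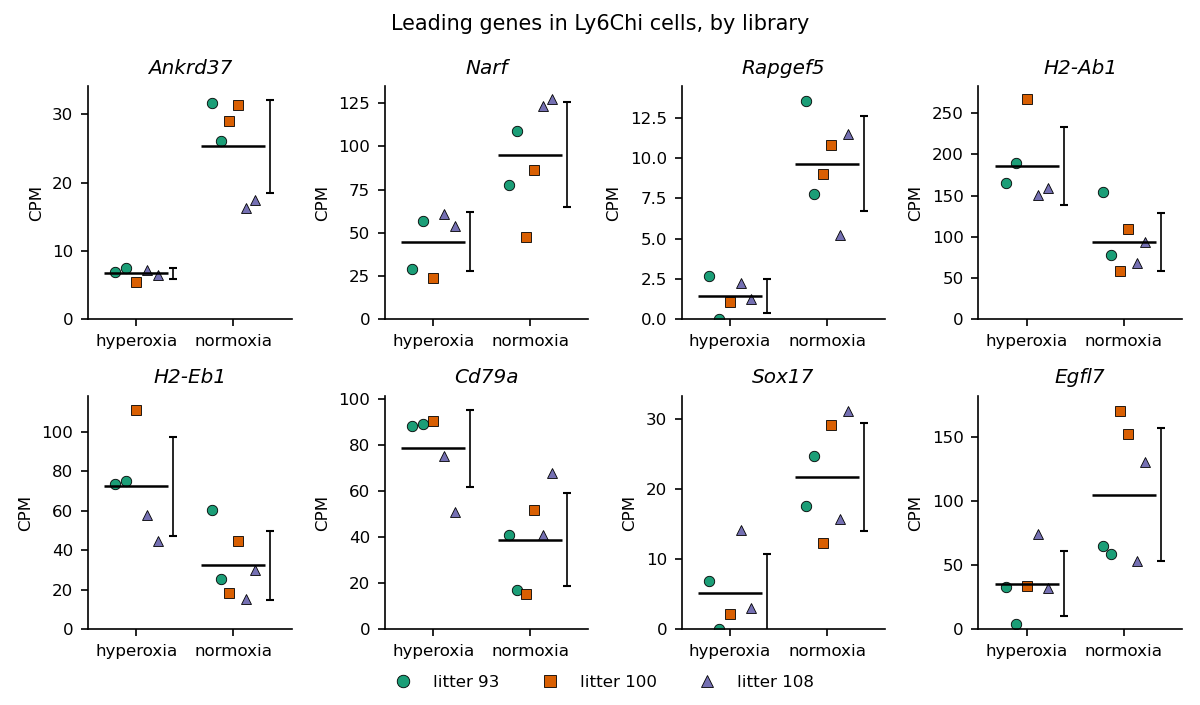
TMM-scaled CPM of 8 leading genes in each Ly6Chi library, hyperoxia left and normoxia right in each panel, with colour and shape for the litter, the horizontal line for the group mean and the bar for ± 1 SD (cut at 0). Ankrd37 and Rapgef5 separate the 5 hyperoxic from the 6 normoxic libraries, while the other panels overlap.

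Endothelial markers were mostly lower in hyperoxia. All 18 endothelial markers were tested, 16 had negative log2 fold changes, 6 were lower at an unadjusted p under 0.05 (background 2.59%), and the median was −1.25, or −1.22 with 5 such genes without hyperoxia replicate 3. They summed to 54.1 to 897 CPM in hyperoxia and 534 to 1580 CPM in normoxia, with none at 0 throughout. Sox17, a transcription factor of arterial endothelium, had 6.95, 0, 2.17, 14.1 and 3.0 CPM in hyperoxia and 12.3 to 31.1 CPM in normoxia (−2.15 ± 0.64). Egfl7, secreted by endothelium, had 32.6, 3.73, 33.7, 74.6 and 32.5 CPM in hyperoxia and 52.9 to 170 CPM in normoxia (−1.45 ± 0.46). Esam, an adhesion molecule of endothelial junctions, had −1.90 ± 0.61. Hyperoxia replicate 2 was the lowest of the 11 libraries for all 3 of these genes.

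Among the 20 genes with the smallest p, Rapgef5 had 2.67, 0, 1.09, 2.27 and 1.28 CPM in hyperoxia and 5.23 to 13.5 CPM in normoxia (−2.62 ± 0.60). Piezo2, a mechanically gated ion channel, had 2.67, 0.622, 1.09, 3.18 and 1.28 CPM in hyperoxia and 4.57 to 18.4 CPM in normoxia (−2.37 ± 0.54). Tspan18, a tetraspanin, had 2.14, 0, 3.26, 3.64 and 0 CPM in hyperoxia and 7.39 to 38.4 CPM in normoxia (−2.90 ± 0.69). Tcim had 4.35 to 10.0 CPM in hyperoxia and 10.3 to 53.5 CPM in normoxia (−1.80 ± 0.42). The groups did not overlap for these 4 genes, nor for B3glct. Edil3, Ripply3, Mest, Ehd2, Ints6 and B3glct were also lower, with log2 fold changes of −1.30, −1.77, −1.77, −1.74, −1.11 and −1.13. Whether endothelial RNA in the sort sets these levels was not tested.

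The other leading genes that were higher were Chchd10, a mitochondrial protein, at 67.4, 25.5, 148, 64.1 and 75.3 CPM in hyperoxia and 11 to 79.4 CPM in normoxia (1.40 ± 0.34), and Eme1, a DNA repair endonuclease subunit, at 1.66 ± 0.46. Basp1 had 2.05 ± 0.59. Upp1, the uridine phosphorylase, had 3.21, 4.97, 158, 6.82 and 42.8 CPM in hyperoxia and 0.41 to 17.3 CPM in normoxia (2.35 ± 0.67, or 1.54 without hyperoxia replicate 3). Its 2 highest libraries were hyperoxia replicates 3 and 5, and the other 3 lay within the normoxic range.

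Epithelial markers were more often lower than higher with all libraries. Mesenchymal ones were split, with 2 positive and 2 negative, but 0 of 5 were positive without hyperoxia replicate 3. Of 14 epithelial markers tested, 4 had positive and 10 negative log2 fold changes, with 0 at an unadjusted p under 0.05. Their median was −0.22, or −0.03 with 7 of 15 positive without hyperoxia replicate 3. The 3 with the smallest p, Krt19, Ager and Cldn18, had −1.32, −0.97 and −1.03. Epithelial markers summed to 188 to 3030 CPM in hyperoxia and 287 to 3700 CPM in normoxia. Sftpc, the surfactant protein C of alveolar type II cells, had 698, 17.4, 92.3, 649 and 37.7 CPM in hyperoxia and 54.0 to 738 CPM in normoxia (−0.68 ± 1.14). Of 4 mesenchymal markers tested, Acta2 (−0.97 ± 0.36) and Tagln (−1.78 ± 0.77, or −3.0 without hyperoxia replicate 3), which encode contractile proteins of smooth muscle, were lower at an unadjusted p under 0.05. Markers of eosinophils, basophils and mast cells spread widely in both groups. Of 6 tested, 5 had negative log2 fold changes, with a median of −1.08, or −0.43 over 9 tested without hyperoxia replicate 3. Kit, the stem cell factor receptor of mast cells and progenitors, had −1.87 ± 0.72, Ms4a2, a chain of the IgE receptor, −1.32 ± 1.0, and Prss34, a basophil protease, −1.23 ± 1.34. Mcpt8, a basophil protease, had 20.3, 0, 1.09, 96.4 and 126 CPM in hyperoxia and 0 to 195 CPM in normoxia. Platelet and erythroid markers had 3 and 1 genes tested and none at an unadjusted p under 0.05. The erythroid markers summed to 831 CPM in hyperoxia replicate 3, to 3.11 CPM in the lowest hyperoxic library and to 13.5 to 292 CPM in normoxia.

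Genes of the interferon-γ response were mostly higher in hyperoxia, and by much less without hyperoxia replicate 3. Of 20 genes tested from a list of 30, 18 had positive log2 fold changes. Among these 20, 6 were higher at an unadjusted p under 0.05 (background 2.86%). The median was 0.41 with all libraries and 0.13 without that library, when 1 gene was higher and 1 lower at an unadjusted p under 0.05. Gbp2, a guanylate-binding protein, had 134, 130, 1030, 106 and 246 CPM in hyperoxia, and 50.9 to 125 CPM with a median of 90.3 CPM in normoxia. Hyperoxia replicate 3 was far above all others, replicate 5 was second, and a single hyperoxic library, replicate 4, lay within the normoxic range. The log2 fold change was 1.49 ± 0.62 with all libraries and 0.53 ± 0.24 without hyperoxia replicate 3.

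The chemokine Cxcl10, which draws activated T cells, had 3.74, 14.9, 419, 34.1 and 39.4 CPM in hyperoxia and 1.28 to 32.2 CPM in normoxia (2.28 ± 0.73, or 1.24 ± 0.72 without hyperoxia replicate 3). Cxcl9 had 155 CPM in hyperoxia replicate 3, at most 1.36 CPM in the other 4 hyperoxic libraries and at most 5.75 CPM in normoxia, and was too low elsewhere to test. Irf1, a transcription factor that interferons induce, had 315, 339, 578, 290 and 316 CPM in hyperoxia and 200 to 297 CPM in normoxia (0.53 ± 0.18, or 0.18 ± 0.09 without it). The receptor chains Ifngr1 and Ifngr2 had log2 fold changes of −0.06 ± 0.11 and 0.02 ± 0.10.

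**Figure D3:**
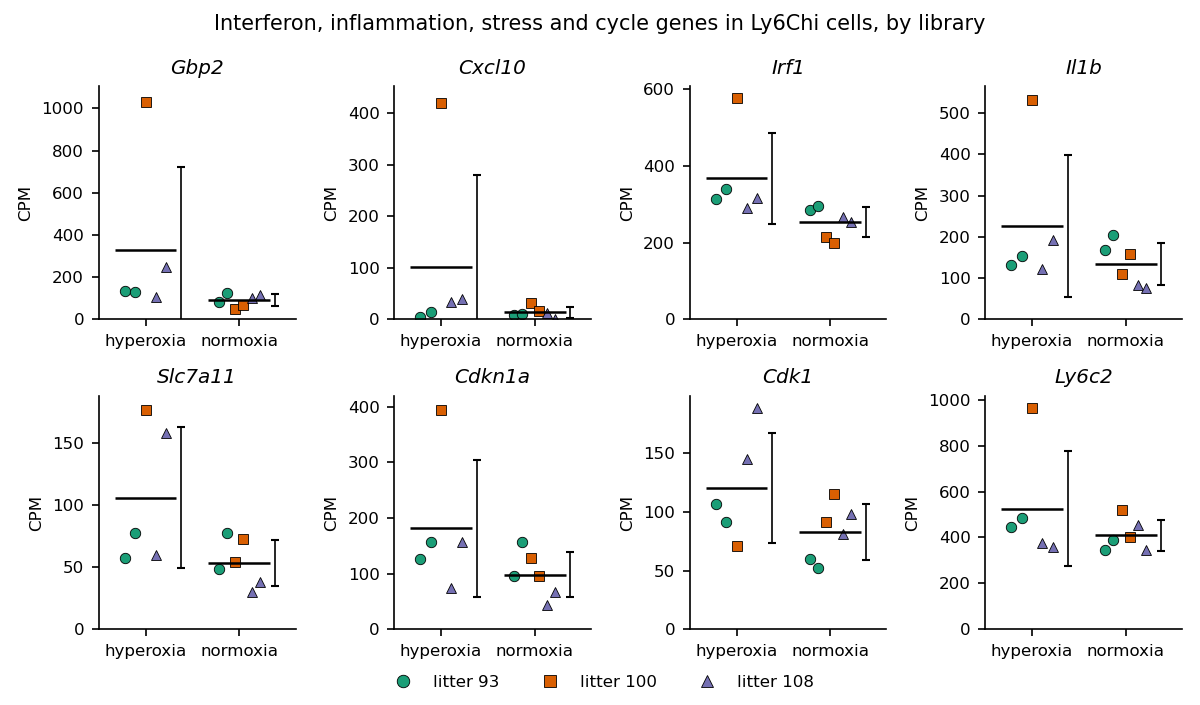
TMM-scaled CPM of 8 genes (interferon, inflammation, stress, cell cycle and Ly6c2) in each Ly6Chi library, hyperoxia left and normoxia right, with colour and shape for the litter, the line for the mean and the bar for ± 1 SD (cut at 0). The orange square on the hyperoxic side is hyperoxia replicate 3, the highest of all libraries in every panel except Cdk1.

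Hyperoxia replicate 3 also held some transcripts of cytotoxic lymphocytes, while Prf1, which encodes perforin, had no count in any of the 11 libraries. The following genes were chosen after their values were seen. Ifng itself had 24 counts in that library, 4 counts in hyperoxia replicate 5 and 0 in the other 9. Nkg7, a granule protein of NK and T cells, had 237 CPM in hyperoxia replicate 3, 44.5 and 7.73 CPM in replicates 5 and 4, 0 in replicates 1 and 2, and at most 0.54 CPM in normoxia. Gzma, which encodes granzyme A, had 239 CPM in replicate 3, 0 in the other 4 hyperoxic libraries and at most 1.37 CPM in normoxia. Cd3e, of the T cell receptor, had 1.09 CPM in replicate 3, 0 in the other hyperoxic libraries and 16.5 CPM in a single normoxic library. The 18 T and NK markers summed to 733 CPM in replicate 3, to 4.35 CPM in the lowest hyperoxic library and to 0.645 to 159 CPM in normoxia. Il12b, a cytokine of myeloid cells that induces interferon-γ, had 373 CPM in replicate 3 and 14.6 CPM in replicate 5, 0 in the other 3 and at most 0.581 CPM in normoxia. Ccl5 had 594 and 72.3 CPM in replicates 3 and 5, at most 4.35 CPM in the other 3, and at most 1.74 CPM in normoxia. The part of lymphocytes in the interferon-γ values was not tested.

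Gbp2 was also high in the litter 100 hyperoxic libraries of the other populations. Scaled by library totals alone, the litter 100 hyperoxic libraries had Gbp2 at 926 (Ly6Chi), 1040 (Ly6Clo), 625 (AM) and 1000 CPM (DC). In each population that library was the highest of all for Gbp2, since the other hyperoxic libraries reached at most 250, 640, 453 and 393 CPM and the normoxic ones at most 125, 52.9, 35.3 and 111 CPM. Ifng, by contrast, had 23.4 CPM in the Ly6Chi library, 0 in Ly6Clo and AM and 0.764 CPM in DC.

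Other inflammatory lists also had smaller medians without that library. MHC class I and peptide loading genes had 14 of 16 positive log2 fold changes and a median of 0.39. Among the 16, 6 were higher at an unadjusted p under 0.05 (background 2.86%). Without hyperoxia replicate 3 the median was 0.03, with 0 such genes. H2-K1, a class I heavy chain, had 0.51 ± 0.17, or 0.24 without it. Psmb8 and Psmb10, immunoproteasome subunits, had 0.44 ± 0.16 and 0.43 ± 0.17, or 0.16 and 0.13 without it. Genes of NF-κB and inflammation had 19 of 22 positive, and 5 higher at an unadjusted p under 0.05 (background 2.86%). Their median was 0.25, or 0.07 with 0 such genes without hyperoxia replicate 3. Il1b had 132, 154, 531, 122 and 193 CPM in hyperoxia and 75.8 to 205 CPM in normoxia (0.76 ± 0.33, or 0.27 without it), so only replicate 3 lay outside the normoxic range. Il1a had 15, 3.11, 162, 7.73 and 92.9 CPM in hyperoxia and 0 to 11.5 CPM in normoxia (3.23 ± 1.16, or 2.16 ± 1.3 without it). Its highest libraries were hyperoxia replicates 3 and 5. Traf1 had 1.19 ± 0.48, or 0.96 without hyperoxia replicate 3. Sod2, the mitochondrial superoxide dismutase, had 0.55 ± 0.22, or 0.14 without it, and Tnf had 0.07 ± 0.38. Of 11 chemokines, 3 were higher (background 2.86%) and 1 lower (background 2.59%) at an unadjusted p under 0.05, with a median of 0.39. Leaving that library out gave 0 higher, 1 lower and a median of 0.06. Cxcl16 had 4.81, 6.84, 125, 25.5 and 123 CPM in hyperoxia and 7.77 to 29.7 CPM in normoxia (1.63 ± 0.61, or 1.15 without it). Ccl3 had 0.62 ± 0.24, or 0.22 without it, and Ccl9, a constitutive monocyte chemokine, −0.25 ± 0.10, or −0.19 without it. Oxidative phosphorylation subunits had 21 of 28 positive, and 8 higher at an unadjusted p under 0.05 (background 2.86%). Their median was 0.26, or 0.08 without hyperoxia replicate 3, when none was higher at that threshold.

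Type I interferon genes were more often lower than higher. Of 30 tested, 11 had positive and 19 negative log2 fold changes, and the median was −0.05, against −0.02 for all genes. Among the 30, 0 were higher and 2 lower (background 2.59%) at an unadjusted p under 0.05. Mx2, an antiviral GTPase, had 23, 30.5, 43.5, 25.5 and 16.7 CPM in hyperoxia and 27.7 to 75.1 CPM in normoxia (−0.62 ± 0.24). Oas2, an antiviral RNA sensor enzyme, had −0.51 ± 0.23, and Mx1 −0.38 ± 0.21. Zbp1, whose p was smaller than that of Mx1, went the other way at 0.41 ± 0.22, or −0.015 without hyperoxia replicate 3. Without hyperoxia replicate 3 the median was −0.21, and 3 genes were lower at an unadjusted p under 0.05 (background 2.03%). Hyperoxia replicate 5, second for Gbp2, was the lowest of the 11 libraries for Mx1 (44.1 CPM), Mx2 and Oas2 (80.0 CPM).

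**Figure D4:**
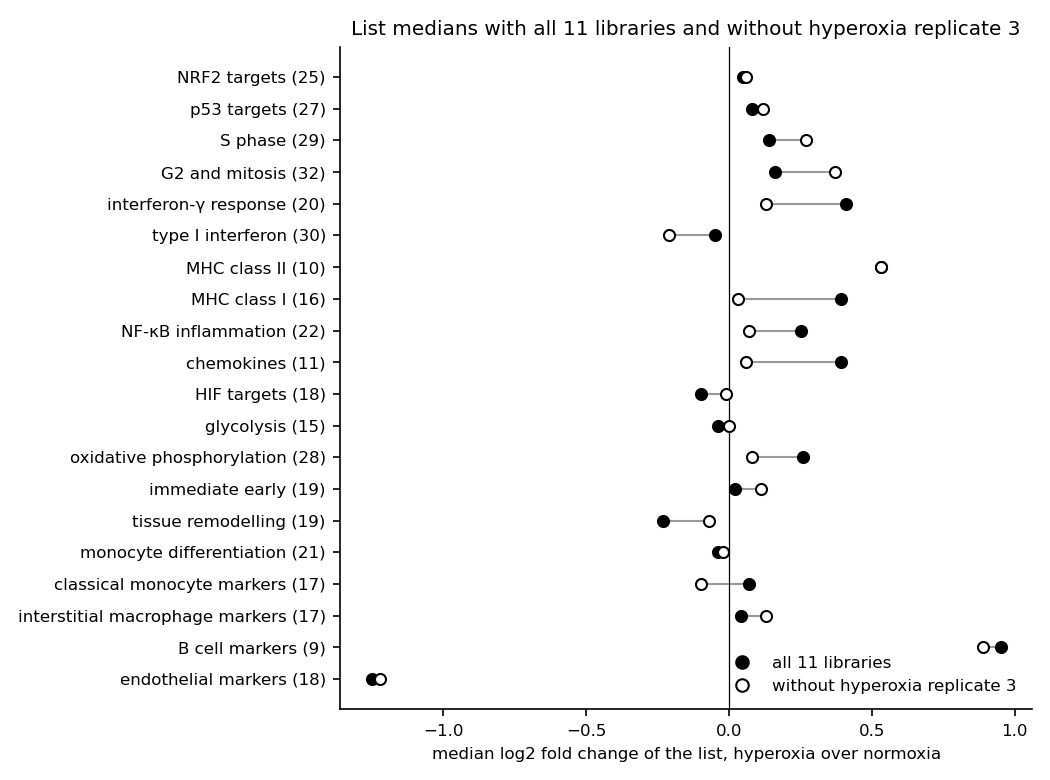
Median log2 fold change (hyperoxia over normoxia) of 20 gene lists, with the number of genes tested in all 11 libraries in brackets, for all 11 libraries (filled) and without hyperoxia replicate 3 (open). The interferon-γ, MHC class I, NF-κB, chemokine and oxidative phosphorylation medians moved towards 0 without that library, G2 and mitosis moved away from 0, and MHC class II, B cell and endothelial medians moved by at most 0.06.

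Antioxidant genes gave a small and uneven difference. Of 25 NRF2 targets tested, 17 had positive log2 fold changes, and the median was 0.05. Among the 25, 5 were higher at an unadjusted p under 0.05 (background 2.86%) and 0 were lower. Slc7a11, the cystine importer that feeds glutathione, had 57.7, 77.7, 177, 60.0 and 158 CPM in hyperoxia, and 30.2 to 77.7 CPM with a median of 51.3 CPM in normoxia. Replicates 3 and 5 were the high ones and the other 3 lay within the normoxic range (1.04 ± 0.32, and 0.87 ± 0.38 without replicate 3). Fth1, the ferritin heavy chain (0.43 ± 0.15), Blvrb, a biliverdin reductase (0.82 ± 0.31), Prdx1, a peroxiredoxin (0.26 ± 0.11), and Txn1, thioredoxin (0.46 ± 0.20), were highest in replicate 3, and without it had 0.17, 0.33, 0.13 and 0.14. Blvrb had 97.8, 89.5, 356, 70.9 and 121 CPM in hyperoxia and 50.8 to 115 CPM in normoxia. Hmox1, the inducible haem oxygenase, had −0.11 ± 0.15, Gclm 0.36 ± 0.24 and Txnrd1 0.06 ± 0.18. Without replicate 3, Slc7a11 was the only one of the 25 at an unadjusted p under 0.05.

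Differences in p53 targets were also small. Of 27 tested (median 0.08), 17 were positive, and 2 were higher (background 2.86%) and 0 lower at an unadjusted p under 0.05. Cdkn1a, which encodes the cell cycle inhibitor p21, had 127, 157, 394, 73.7 and 156 CPM in hyperoxia and 44.2 to 156 CPM in normoxia, so replicate 3 lay clearly above the normoxic range. Its log2 fold change was 0.93 ± 0.28, or 0.58 ± 0.28 without that library. Bax, which promotes apoptosis, had 0.35 ± 0.14, or 0.11 without it. Mdm2, the inhibitor of p53, had 160 to 186 CPM in hyperoxia and 85.8 to 173 CPM in normoxia (0.24 ± 0.15), and Ccng1 had 0.00 ± 0.17.

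Of the haem and iron genes, Fth1 and Blvrb were the 2 of 14 at an unadjusted p under 0.05. Among 16 ER stress and ATF4 genes, Ddit3, which encodes CHOP, was the one that was higher (0.60 ± 0.25, or 0.25 without hyperoxia replicate 3), and the median was 0.04. Metallothionein and zinc genes had a median of 0.06 over 8 genes, with Mt1 at 0.29 ± 0.21, and cholesterol synthesis genes 0.04 over 17, with 0 genes in either list at an unadjusted p under 0.05. Immediate early genes, which dissociation of tissue also induces, had a median of 0.02 over 19, or 0.11 without hyperoxia replicate 3. Dusp2, a phosphatase of MAP kinases, had 0.50 ± 0.16 and Fosb 0.60 ± 0.25.

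Monocyte and macrophage identity genes differed little. The 17 classical monocyte markers tested had a median of 0.07, or −0.10 without hyperoxia replicate 3, with Ly6c2 higher (0.36 ± 0.16, or 0.11 ± 0.14 without hyperoxia replicate 3) and Chil3 and Fn1 lower at an unadjusted p under 0.05. Chil3, a secreted chitinase-like protein, had 188, 236, 171, 282 and 412 CPM in hyperoxia and 205 to 545 CPM in normoxia (−0.45 ± 0.15). Fn1, fibronectin, had −0.24 ± 0.10. Vcan, the proteoglycan versican, had 114, 113, 426, 139 and 147 CPM in hyperoxia and 172 to 348 CPM in normoxia. The 4 hyperoxic libraries other than replicate 3 all lay below the normoxic range, and the log2 fold change was −0.43 ± 0.21 with and −0.80 without that replicate. Vcan was named after its values were seen. Ly6c1, a close paralog of Ly6c2, had 3.73 to 97.8 CPM in hyperoxia and 22.7 to 88.3 CPM in normoxia (−0.75 ± 0.48), and reads that fit both copies can make either count uncertain.

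Non-classical monocyte markers had a median of 0.02 over 15 genes, and Nr4a1, the transcription factor their survival depends on, had −0.42 ± 0.25. Interstitial macrophage markers had a median of 0.04 over 17, with 9 positive and 8 negative. C1qc, a complement chain, had 47.6, 113, 76.0, 55.9 and 178 CPM in hyperoxia and 26.4 to 65.9 CPM in normoxia (0.97 ± 0.34). Cd63 had 0.73 ± 0.32, and F13a1 went the other way (−0.47). Alveolar macrophage markers had a median of 0.12 over 13, with 7 positive and 6 negative. Chil3, also in this list, had its smallest p and was lower (−0.45). Lpl, lipoprotein lipase, had 0.67 ± 0.22 and Fabp5 0.48 ± 0.20. Dendritic cell markers had 0.06 over 13, with Kit, also in the mast cell list above, at −1.87 ± 0.72 and Batf3 at 0.53 ± 0.21. Neutrophil markers had 0.03 over 19, with S100a9 at 0.48 ± 0.17 and Prtn3, a granule protease, at 0.55 ± 0.21. They were split, with 10 positive and 9 negative, and 3 higher and 2 lower at an unadjusted p under 0.05. Mmp9, also in this list, had −1.12. In the differentiation list Cebpb, a transcription factor of monocytes, had 0.20 ± 0.09. Without hyperoxia replicate 3 the medians of these 5 marker lists were −0.09 (non-classical), 0.13 (interstitial), 0.05 (alveolar), −0.11 (dendritic) and 0.12 (neutrophil). Without it Cd63 had 0.49, Fabp5 0.29, Batf3 0.32 and S100a9 0.22.

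Genes for receptors, adhesion and lipid handling lay near 0 as lists. Receptors of pattern recognition had a median of 0.12 over 26, with Clec7a, which encodes Dectin-1, at 0.20 ± 0.09, Tlr6 at −0.55 ± 0.23 and Clec4d at 0.45 ± 0.31. Adhesion and trafficking genes had 0.03 over 23, with the integrin chain Itgb7 at 0.43 ± 0.19 and Itgam, which encodes CD11b, at −0.04 ± 0.11. Lipid handling genes had 0.05 over 19, with Pltp, a phospholipid transfer protein, at −0.98 ± 0.41. Alternative activation genes had −0.09 over 11, with the lectin Clec10a at −1.0 ± 0.39, Socs3, which damps cytokine signals, at 0.66 ± 0.27 and Il4ra, the interleukin-4 receptor, at 0.52 ± 0.21. Tissue remodelling genes had −0.23 over 19, with Mmp9, a gelatinase, at −1.12 ± 0.48 and F13a1, coagulation factor XIII, at −0.47 ± 0.22. Without hyperoxia replicate 3 the receptor median was 0.03 and the remodelling median −0.07, and Clec7a had 0.10, Itgb7 0.07 and Il4ra 0.19.

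To ask where Ly6Chi cells differ, their hyperoxia effect was set against the mean effect in DC, AM and Ly6Clo cells in 1 model of 43 libraries. That model treats all libraries as independent, although libraries of several populations may come from the same pup. It called 2 of 12529 genes (0.016%), among them Mreg, and the contrast with Ly6Clo alone called 0 of 12529 (0%), with 591 at an unadjusted p under 0.05. Limma voom also called 0 genes in the contrast with Ly6Clo.

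Mreg, which encodes melanoregulin, a protein of organelle transport in pigment cells, was called on very few reads. It was too low to test in the Ly6Chi comparison and entered this fit through the other populations. On the scale set over all 43 libraries, its normoxic medians were 46.2 CPM in DC, 35.7 in AM, 27 in Ly6Clo and 0 in Ly6Chi. The Ly6Chi libraries had 4, 3, 10, 3 and 35 counts in hyperoxia and 2 counts in all 6 normoxic libraries together, a ratio of 37.2 with an exact interval of 9.83 to 315.0 that covers counting error only. The difference of effects was 5.06 on the log2 scale (adjusted p = 0.047), a fitted value that depends on the prior count. The call was lost without 10 of the 11 Ly6Chi libraries in turn and held without hyperoxia replicate 4.

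Ankrd37 was lower in hyperoxia in all 4 populations in this fit, with log2 fold changes of −1.82 ± 0.47 in Ly6Chi, −2.51 ± 0.68 in Ly6Clo, −2.92 ± 0.80 in AM and −1.41 ± 0.48 in DC. The larger values came from low levels. On the scale of all 43 libraries, AM had 0 to 1.91 CPM in hyperoxia and 0 to 14.8 CPM in normoxia. Ly6Clo cells had 0 to 4.03 and 0.872 to 15.4 CPM, so the groups overlapped in both populations. The difference between Ly6Chi and the mean of the others was 0.46 ± 0.52 (adjusted p = 1). Narf had −1.21 ± 0.29, −1.27 ± 0.34, 0.04 ± 0.35 and −0.81 ± 0.30 in the same order, and its difference was −0.53 ± 0.35 (adjusted p = 1). H2-Ab1 had 0.99 ± 0.41 in Ly6Chi and −0.53 ± 0.46 in Ly6Clo, and Cdk1 had 0.56 ± 0.34 and −0.82 ± 0.40. The tests of those differences gave 1.51 ± 0.61 (adjusted p = 0.99) and 1.38 ± 0.53 (adjusted p = 0.917).

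**Figure D5:**
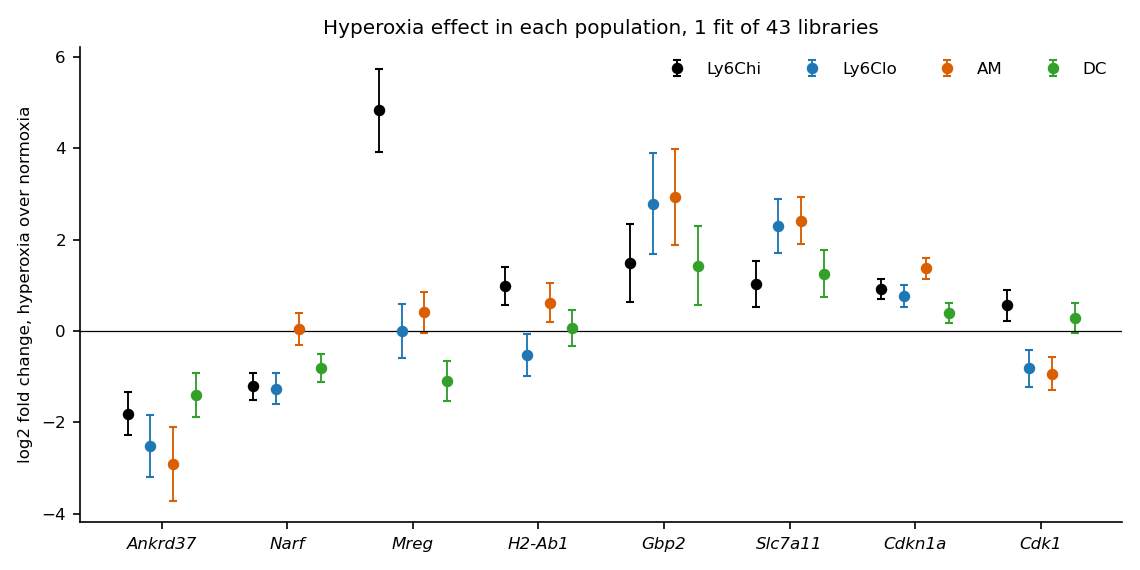
Log2 fold change of 8 genes (hyperoxia over normoxia) in Ly6Chi, Ly6Clo, AM and DC, from left to right within each gene, in 1 fit of 43 libraries; points are estimates and bars ± 1 SE. Ankrd37 is negative in all 4 populations, and Cdk1 is positive in Ly6Chi and DC and negative in Ly6Clo and AM.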

How the data were processed

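RNA of sorted Ly6Chi cells was amplified with SMART-Seq v4 and made into Nextera XT libraries, per the labels' protocols, so reads carry no molecular identifiers. The deposited table holds raw counts per Ensembl gene, whole numbers without normalization. The tools named in the submitters' processing notes are SAMtools, Picard, FastQC, TopHat and HTSeq (version 0.4.1), and the build is NCBIM37; no roles or order are given there. Of 37991 genes, 32938 were given a symbol from GENCODE M21 (GRCm38), used for names and exonic lengths only, and genes without a symbol held 0.799% of the Ly6Chi counts. The highest Ly6Chi count was 4012, so differences of the most abundant transcripts may be compressed.

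Libraries were grouped by labelled source. EdgeR 4.0.16 (R 4.3.3) kept genes by filterByExpr (minimum count 10, minimum total 15), scaled by TMM and ran robust quasi-likelihood tests with litter as an additive block, adjusted by Benjamini and Hochberg over all genes tested and called under 0.05. No samples were paired by replicate number, which only follows the order of the deposit. Sex was not in the model and was not balanced in litter 108. There normoxia replicates 5 and 6 and hyperoxia replicate 5 had Xist at 76.2, 117 and 68.9 CPM. Hyperoxia replicate 4 had 0 CPM of Xist and 147 CPM of the Y-linked Ddx3y. Fold changes are log2 (prior count 0.125) with SE, levels are TMM-scaled CPM, and differences by litter use means of log2 CPM (prior count 2). The difference of effects was tested in 1 fit of 43 libraries with litter within population, which takes libraries as independent, although populations may share pups. Alternatives included limma voom 3.58.1, DESeq2 1.42.0, other scalings and filters, other litter terms and each library or litter left out. The test scripts were tested on simulated data. Figures used matplotlib 3.10.9.

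Genes were named by rule: called genes, the 20 smallest p-values, the 3 smallest p-values in each list or its calls, a panel of 38 genes and genes called for a difference of effect. Further genes were named after their values were seen, and other list members are given as examples. The comparison, the lists and the panel were chosen with earlier results of these data known. Gbp5, Gbp6, Psmb9, Bcl2a1d, Hmgcs1, Siglec5, Ly6a2 and Ahsp were not analysed here, some other results are not reported here, and the promoter of H2-Ab1 is not shown. Intervals cover counting error only.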

Additional observations from a re-analysis of the deposited data

Results flagged for a closer look

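Reported genes of the panel and of the 20 with the smallest p, 51 genes in all, were checked in both groups for a library far from the rest of its group by Dixon's criterion. Of 102 groups 20 were marked, and 10 of these were hyperoxia replicate 3, which was the highest of its group each time. The criterion marks about 1 in 20 by chance only for independent, normally spread values. These are CPM of genes that share the same 11 libraries, some of them picked by p, so the number marked is not set against chance. The marked values of that library, in CPM, were 13 for Ehd2, 45.6 for Basp1, 158 for Upp1, 963 for Ly6c2, 394 for Cdkn1a, 356 for Blvrb, 578 for Irf1, 1030 for Gbp2, 419 for Cxcl10 and 531 for Il1b. Its total is the smallest of the 11, its T and NK markers summed to 733 CPM and its erythroid markers to 831 CPM. Their part in these values was not tested.

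In other hyperoxic libraries, replicate 4 was high for Mest (47.3 CPM), Vegfa (39.6 CPM) and Mki67 (184 CPM), and replicate 2 was low for Txnrd1 (60.3 CPM). In normoxia, replicate 4 was high for Tspan18 (38.4 CPM), Chchd10 (79.4 CPM) and Il1rn (177 CPM), replicate 5 was high for Ccr2 (1170 CPM) and Ifngr1 (1020 CPM), and replicate 3 was low for Mdm2 (85.8 CPM).

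Mreg was called for its hyperoxia effect in Ly6Chi cells minus the mean effect in the other 3 populations, 5.06 on the log2 scale. The difference itself was tested, but Mreg was too low to test in the Ly6Chi comparison alone. The call rested on few counts and on which Ly6Chi libraries were kept.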

How the results depend on the processing

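The count of called genes depended on the settings: 0 higher and 0 lower became 2 and 3 with DESeq2, 104 and 131 with no filter on low counts, 4 and 1 with the spread taken from all 43 libraries, and 1 and 0 without litter 93, the gene being Nkg7. Leaving out each library in turn called 0 genes every time. Genes higher at an unadjusted p under 0.05 numbered 310, against 787 with no filter, 113 without the litter term, 551 with the spread of all libraries, 151 with a covariate for detected genes, and 137 to 452 with each library left out, lowest without hyperoxia replicate 3 and 193 without normoxia replicate 3. Lower ones numbered 281, against 723 with no filter, 177 without the litter term, and 188 to 489 with each library left out, highest without hyperoxia replicate 4. The higher share of these genes was 52.5%, and 39.0% without the litter term, 42.9% with detected genes, 62.9% without litter 93, and 37.6% and 38.5% on leaving out hyperoxia replicate 3 or normoxia replicate 3.

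The difference of effects from the other populations called 2 genes, 1 with voom, 4 with litter common to all populations, 191 with no filter, and 0 to 4 with each library left out: 0 without hyperoxia replicate 3, 4 without hyperoxia replicate 4 or normoxia replicate 2, 2 without hyperoxia replicate 2 or normoxia replicate 1, and 1 without any other. Against Ly6Clo it called 0, 1 with a common litter, 170 with no filter, and 0 to 1 with each library left out, 1 without hyperoxia replicate 2. No median of all genes moved by over 0.1. The tissue remodelling median (−0.23) was 0.17 without litter 93 and −0.27 to 0.02 with each library left out, the epithelial one (−0.22) 0.10 without litter 100 and −1.79 to 0.29 in turn, the mast cell and basophil one (−1.08) −1.33 to 0.37 and the mesenchymal one (−0.41) −1.12 to 0.20. The causes were not tested. No paired analysis was possible because replicate numbers follow the order of the deposit and the labels name no pups, so litter was the block. Totals of 1026528 to 2393286 counts limit the precision for genes of few counts such as Mreg.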

Other observations

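Further genes, chosen after their values were seen, include Acod1, which makes itaconate in activated macrophages, at 0.535, 4.97, 406, 15 and 77.9 CPM in hyperoxia and at most 22.2 CPM in normoxia. Slamf7, a receptor of activated myeloid and lymphoid cells, had 2.67, 6.84, 246, 10.5 and 113 CPM in hyperoxia and 0.914 to 11.3 CPM in normoxia. For both genes hyperoxia replicates 3 and 5 stood above the normoxic range. In CPM of the library total, Slamf7 in hyperoxic Ly6Clo cells had 329 CPM in the litter 100 library and 7.15 to 289 CPM in the other 4, against 15.7 to 28.6 CPM in normoxia.

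With the spread taken from all 43 libraries, Rhoc, a small GTPase, was called lower in hyperoxic Ly6Chi cells (log2 fold change −1.97, adjusted p = 0.0499). It had 10.7, 0.622, 4.35, 18.2 and 3.85 CPM in hyperoxia and 12.2 to 58.4 CPM in normoxia, with 1 hyperoxic library, replicate 4, inside the normoxic range. Of the HIF targets, 18 of the 22 had a promoter in the RefSeq table, and all 18 held ACGTG or GCGTG on either strand, against 46.7% of all 27025 genes in that table. This describes letters in a list picked for its link to HIF and says nothing of binding in these cells.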
